A study of Homo sapiens with 8 samples.

Results

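The 42 genes described here encode proteins of DNA replication and mitosis, and they were chosen by name from the symbols that the authors' deposited table gives to probe sets, older symbols included (CDC2 for CDK1, DLG7 for DLGAP5 and CDC45L for CDC45). They are 42 of 8928 genes named through that table, and each is represented by the brightest of its named probe sets, out of 54613 probe sets on the array without controls. All 42 were named and measured, with signals from 199.4 to 5164 units on any array, so no member was lost to a limit on low signals. The study measured total RNA of HMLE cells, an immortalized human mammary epithelial line, on 8 single-colour Affymetrix arrays. The 4 groups of 2 arrays all came from this line and were grown in MEGM, a mammary epithelial growth medium. CD24hi held cells sorted as positive for CD24, a surface glycoprotein of epithelial cells. MSP1, MSP2 and MSP3 held 3 mesenchymal subpopulations of the line. No drug, dose or time point is given for any group. The 2 arrays of each group carry the letters a and b in their labels, which do not say that they came from separate cultures. A p-value for a difference between groups thus sets it against the spread of arrays within groups alone, and that spread may be technical.

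Before a cell copies its DNA, the MCM helicase is loaded at replication origins with the help of CDC6 and is then switched on with CDC45, while the RFC complex loads the PCNA clamp that holds DNA polymerases on their template. Genes of these steps are typically transcribed from late G1 on, when E2F factors are released from repression. Genes of mitosis, among them cyclins, CDK1, spindle motors and checkpoint proteins, typically follow in G2, when MYBL2 and FOXM1 act with the MuvB complex. Together they are the usual transcript measure of proliferating cells, and their levels in a bulk sample follow the share of cells in cycle as well as the level in each cell.

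The groups were checked against markers of their labels. Of 6 epithelial markers 5 fell in the mesenchymal groups (limma, adjusted p under 0.05), with CD24 at 5029 in CD24hi and 57.2 in the MSP groups, and KRT14 missed the threshold (adjusted p = 0.0677). Of 6 mesenchymal markers 3 rose, ZEB1, COL1A2 and COL3A1, whereas VIM, FN1 and CDH2 missed it. All 6 epithelial and 5 of the 6 mesenchymal markers are among the probe sets that the authors' table lists first. How that part was chosen is not known here, so these counts are not taken as independent evidence of direction. Among the 4 markers of blood and endothelial cells with a name here, PTPRC, VWF and CDH5 had mean signals under 32 units, and PECAM1 had 60.0. The 2 CD24hi arrays stood apart from each other more than the arrays of any MSP group. Of 23120 probe sets with a mean signal of at least 32 units, called bright below, 27.0% differed more than 2-fold between them, where the MSP pairs gave 3.98% to 8.36%. Control transcripts of Bacillus, added in the laboratory, had a signal of 648 on CD24hi a but 63.9 on CD24hi b, while MSP a arrays had 232 to 254 and MSP b arrays 172 to 191. The ratio of 3′ to 5′ signal of ACTB was highest on CD24hi a, at 1.47, and 1.10 to 1.25 elsewhere. Precision is limited throughout by having 2 arrays in a group. In bulk RNA, fewer cells of a type and less RNA per cell cannot be told apart.

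The first comparison asked whether the mesenchymal subpopulations differed from the CD24hi cells in these genes. None of the 42 members passed the test in the comparison of all 3 MSP groups, averaged, with CD24hi (limma over all probe sets, adjusted p under 0.05). By the same test 3.17% of all probe sets and 5.06% of bright ones were called. At an unadjusted p under 0.05 there was 1 member, TYMS, against 20.4% of bright probe sets, and limma-trend, which lets the spread depend on the level, also called 1 member, TYMS, against 6.03% of all and 11.6% of bright probe sets. The estimates were positive for 22 members and negative for 20, from -0.81 for RFC3 to 1.03 for LMNB1 on the log2 scale. Their median was 0.03, beside a median of 0.09 over all bright probe sets, and it was -0.030 with each array centred on the median of bright probe sets. All 6 MSP arrays lay above both CD24hi arrays for 4 members, TYMS, ZWINT, STMN1 and MCM5, against 18.9% of bright probe sets. All 6 lay below both for 2 members, RFC3 and RFC5, against 13.3% of bright probe sets.

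The precision of these estimates sets what the arrays could show. The 95% intervals had a median half-width of 0.84 on the log2 scale, and 11 of 42 lay wholly between -1 and 1, that is, within a 2-fold difference either way. The interval reached above 1 for 16 members and below -1 for 19, and it included 0 for 41. TYMS was the exception, with an interval from 0.32 to 1.54. Among bright probe sets that the test did call, the smallest change was 1.38 on the log2 scale and the median 3.36. For the members whose interval reached past -1 or 1, a 2-fold difference in that direction was not excluded at this precision.

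**Figure D1:**
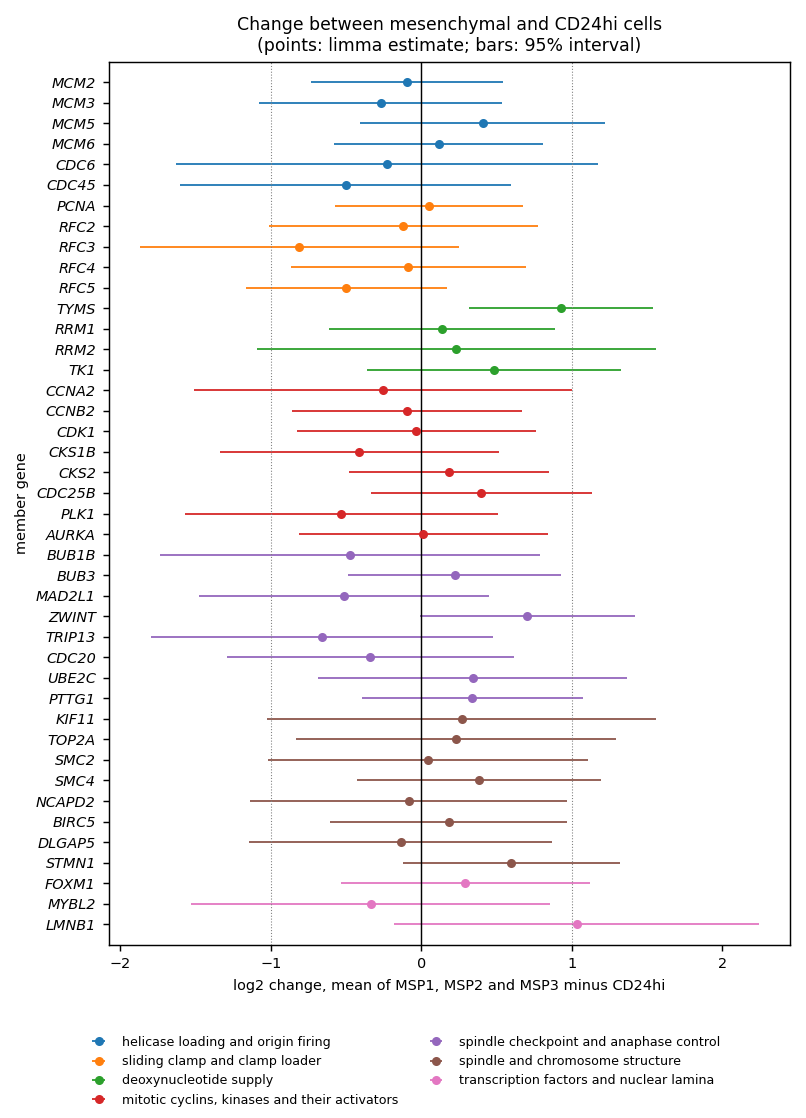
Log2 change of each of the 42 members, mean of MSP1, MSP2 and MSP3 minus CD24hi (horizontal axis), in blocks by role; points are limma estimates from 8 arrays and bars their 95% intervals, with dotted lines at -1 and 1. Only the interval of TYMS leaves out 0, and estimates lie on both sides of 0 in 6 of the 7 roles.

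Genes of helicase loading and origin firing had estimates from -0.50 to 0.41, with none called. CDC45, which joins the MCM ring to make the active helicase, had signals (here and below on arrays a and b of each group) of 430.5 and 417 in CD24hi, 233 and 418 in MSP1, 213 and 417 in MSP2, and 204 and 403 in MSP3. The CD24hi arrays matched the MSP b arrays, and the MSP a arrays lay below all of these, so the groups overlapped. Its log2 change was -0.50 ± 0.45 SE (adjusted p = 0.653, n = 2 arrays per group). MCM2, a subunit of the MCM ring, read 1766 and 1872 in CD24hi, 1437 and 1839 in MSP1, 1680.5 and 1771 in MSP2, and 1813 and 1699.6 in MSP3. Its groups overlapped on every side, with a change of -0.10. The other 4 members, MCM3, MCM5, MCM6 and CDC6, had estimates from -0.27 to 0.41. MCM5 had the highest of these, with all 6 MSP arrays above both CD24hi arrays. The interval of CDC6 ran from -1.63 to 1.17.

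Of the clamp and its loader, RFC3 had the lowest estimate of all 42 members. RFC3, a subunit of the clamp loader, read 1134 and 1032 in CD24hi, 633 and 812 in MSP1, 404 and 845 in MSP2, and 391 and 803 in MSP3. Both CD24hi arrays lay above all 6 MSP arrays, and the MSP arrays were themselves spread more than 2-fold. The log2 change was -0.81 ± 0.44 SE (adjusted p = 0.432). A further RFC3 probe set gave -0.88. RFC5, another loader subunit, had -0.50 (adjusted p = 0.444) and lay below CD24hi on every MSP array, and RFC2 and RFC4 had estimates of -0.12 and -0.09. PCNA, the clamp itself, read 4345 and 3669.7 in CD24hi, 4610.3 and 4806 in MSP1, 3397 and 3779 in MSP2, and 4114 and 4284 in MSP3. Its groups overlapped, and its change was 0.05.

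Among the enzymes of deoxynucleotide supply, all 4 estimates were positive and TYMS stood out. TYMS encodes thymidylate synthase, which makes the thymidine nucleotide needed for DNA. Its signals were 2389.6 and 2554 in CD24hi, 4996 and 5014 in MSP1, 4351 and 4812 in MSP2, and 4587 and 4476 in MSP3. All MSP arrays lay well above both CD24hi arrays, and the arrays a and b of each group were close together. The MSP mean was 1.90-fold that of CD24hi, a log2 change of 0.93 ± 0.25 SE (limma, adjusted p = 0.136, range over alternatives 0.00618 to 0.293). It passed the threshold with signals floored at 32, with an offset of 16, over bright probe sets or named genes alone and with limma-trend (adjusted p = 0.0256). TYMS was the only member with a p-value at or under 0.05 in the authors' deposited table. Its log2 fold changes there were 1.02, 0.90 and 0.86 for MSP1, MSP2 and MSP3. That table compares the same groups of this series, so it is no independent evidence. The next lowest p-value of a member in the authors' deposited table was 0.116. A further TYMS probe set gave a log2 change of 1.43 (limma, adjusted p = 0.11). On that probe set the CD24hi arrays were not close, with 368 on a and 766 on b. RRM1, the large subunit of ribonucleotide reductase, read 3744 and 3088 in CD24hi, 3590.1 and 4367 in MSP1, 2895 and 4193 in MSP2, and 3288 and 4356 in MSP3, with overlapping groups and a change of 0.14. A further RRM1 probe set gave 0.40. RRM2 is the small subunit of the same enzyme, and its signals were 4489 and 2052 in CD24hi, 3253 and 4856 in MSP1, 2379 and 5164 in MSP2, and 2142 and 4911 in MSP3. The CD24hi arrays differed over 2-fold in one direction and the MSP2 and MSP3 arrays over 2-fold in the other, so that its change of 0.23 had an interval from -1.10 to 1.56. TK1, thymidine kinase, had an estimate of 0.48.

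The cyclins, kinases and their activators of mitosis had estimates from -0.53 to 0.40. PLK1, a kinase of mitotic entry and spindle assembly, read 550.4 and 797 in CD24hi, 404 and 553 in MSP1, 382 and 772 in MSP2, and 282 and 499 in MSP3. The CD24hi arrays lay within or above the range of the MSP arrays, and the change was -0.53 ± 0.43 SE (adjusted p = 0.61). It was -0.80 without CD24hi a and -0.26 without CD24hi b. AURKA, the centrosomal Aurora kinase, read 1148 and 1436 in CD24hi, 1362 and 1515 in MSP1, 935 and 1401 in MSP2, and 1026 and 1693 in MSP3, and its change was 0.01. CCNA2, cyclin A2, partners the CDKs through S phase and into mitosis, and its signals were 607 and 1255 in CD24hi, 657 and 974 in MSP1, 538 and 1122 in MSP2, and 433 and 917 in MSP3. Every b array lay above every a array, whatever the group. CKS1B, a small subunit that binds CDKs, read 1592 and 3534 in CD24hi, 1954 and 1869 in MSP1, 1735 and 2111 in MSP2, and 1372 and 1753 in MSP3. CD24hi b was the highest array by far and CD24hi a lay among the MSP arrays, so the estimate of -0.41 (adjusted p = 0.664) rests on CD24hi b; without that array it was 0.16. CCNB2, CDK1, CKS2 and CDC25B had estimates from -0.09 to 0.40.

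Genes of the spindle checkpoint and of anaphase control had estimates on both sides of 0. ZWINT, a kinetochore protein, read 2398 and 1863 in CD24hi, 3665 and 3877 in MSP1, 2821 and 3783 in MSP2, and 2909 and 3763 in MSP3. All 6 MSP arrays lay above both CD24hi arrays, with a log2 change of 0.70 ± 0.29 SE (adjusted p = 0.313). BUB3, a checkpoint protein at unattached kinetochores, read 1969 and 2768 in CD24hi, 3019.8 and 3011 in MSP1, 2313 and 2834 in MSP2, and 2340.2 and 2895 in MSP3, with overlapping groups and a change of 0.22. Further BUB3 probe sets gave 0.32 and 0.60. UBE2C, a ubiquitin-conjugating enzyme that works with the anaphase-promoting complex, read 732 and 1866 in CD24hi, 1756 and 1728 in MSP1, 1221 and 1447 in MSP2, and 1181 and 1655 in MSP3. CD24hi a was the lowest of the 8 arrays and CD24hi b the highest, so the estimate of 0.34 lies between values that differ in sign: it was -0.33 without CD24hi a. TRIP13, MAD2L1, BUB1B and CDC20, also of the checkpoint or its release, had estimates of -0.66, -0.51, -0.48 and -0.34, and PTTG1, which encodes securin, had 0.34.

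Of the genes of spindle and chromosome structure, STMN1 had the widest estimate. STMN1 encodes stathmin, which destabilizes microtubules, and it read 473 and 758 in CD24hi, 1044 and 1006 in MSP1, 833 and 835 in MSP2, and 838 and 900.0 in MSP3. All 6 MSP arrays lay above both CD24hi arrays, with a log2 change of 0.60 ± 0.29 SE (adjusted p = 0.391). It was 0.26 without CD24hi a and 0.94 without CD24hi b. SMC2, a core subunit of condensin, read 1009 and 659.8 in CD24hi, 738 and 1088 in MSP1, 615 and 1132 in MSP2, and 573 and 1099.6 in MSP3. The groups overlapped fully, and its change was 0.04. TOP2A, the topoisomerase that untangles replicated DNA, had 0.23, and a further TOP2A probe set gave 0.92. For BIRC5, which encodes survivin, 3 probe sets gave 0.18, 0.63 and -0.38, at mean signals of 1281, 377 and 81.0. Its direction thus depends on the probe set, and the negative value came from the dimmest. KIF11, SMC4, NCAPD2 and DLGAP5 had estimates from -0.14 to 0.38.

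The last role holds transcription factors of the G2 program and the nuclear lamina. LMNB1 encodes lamin B1 of the nuclear lamina, and its signals were 308 and 456 in CD24hi, 743 and 1154 in MSP1, 499.8 and 978 in MSP2, and 438 and 1096 in MSP3. Within each MSP group array b lay far above array a. The MSP b arrays and MSP1 a were well above CD24hi b, MSP2 a was close to it and MSP3 a just below it, so the groups overlapped. Its change was the highest of the members at 1.03 ± 0.50 SE on the log2 scale, 2.04-fold (adjusted p = 0.38). It was 0.75 without CD24hi a and 1.31 without CD24hi b. FOXM1, a factor of the G2 program, read 339 and 604 in CD24hi, 572 and 594 in MSP1, 530.2 and 666 in MSP2, and 425 and 569 in MSP3. CD24hi a was the lowest array and CD24hi b lay among the MSP arrays, with a change of 0.29. MYBL2 encodes B-MYB, the MuvB partner, and read 226 and 660.4 in CD24hi, 378 and 353 in MSP1, 199 and 303 in MSP2, and 249 and 406 in MSP3. CD24hi held the highest array and one of the lowest, and the change was -0.34 (adjusted p = 0.795).

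Taken one at a time, MSP1, MSP2 and MSP3 gave no called member against CD24hi with limma. These comparisons share the CD24hi arrays with each other and with that of the mean. The test called 1.81% of all probe sets for MSP1, 1.56% for MSP2 and 1.57% for MSP3, and 2.87%, 2.59% and 2.61% of bright ones. At an unadjusted p under 0.05 there was 1 member in each, against 14.9%, 14.7% and 15.9% of bright probe sets, and limma-trend called 0 members in each, against 3.62%, 3.28% and 3.66% of all probe sets. The lowest adjusted p of a member was 0.227 for MSP1, 0.298 for MSP2 and 0.287 for MSP3. The median log2 change of the members was 0.14 in MSP1, -0.03 in MSP2 and -0.00 in MSP3, beside 0.09, 0.10 and 0.10 over bright probe sets.

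Between the mesenchymal subpopulations no member passed either. The call rate was 0% of all probe sets in each of the 3 pairs, with limma and with limma-trend. At an unadjusted p under 0.05 limma gave 0 members in each pair, while 1.47%, 0.796% and 0.999% of bright probe sets had one for MSP2 against MSP1, MSP3 against MSP1 and MSP3 against MSP2. The median log2 difference of the members was -0.14 for MSP2 minus MSP1, -0.21 for MSP3 minus MSP1 and -0.05 for MSP3 minus MSP2, beside 0.01, 0.01 and 0.00 over bright probe sets.

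The members shared a difference between the arrays a and b of a group. In MSP2 all 42 members were higher on array b than on array a, in MSP3 40, in MSP1 33 and in CD24hi 26. Of 23120 bright probe sets, 11247, 11189, 11877 and 11873 were higher on b in the same groups. The members' median log2 difference, b minus a, was 0.54 in MSP2, 0.55 in MSP3, 0.30 in MSP1 and 0.31 in CD24hi. Over bright probe sets it was -0.02, -0.02, 0.02 and 0.03. In all 3 MSP groups together, 31 members were higher on b, against 30.4% of bright probe sets, and 0 were lower on b in all 3, against 31.3%. For 28 members the lowest MSP b array lay above the highest MSP a array, which held for 20.6% of bright probe sets, and the reverse held for 0 members and 21% of bright probe sets. BIRC5 is among these 31 and 28 through its brightest probe set. There b minus a was 0.08, 0.27 and 0.53 in MSP1, MSP2 and MSP3. A further bright BIRC5 probe set gave -0.41, -0.30 and -0.22, and another -0.31, -0.04 and 0.09. The order of letters for BIRC5 thus depends on the probe set. Further bright probe sets of CDC6, RFC2, RFC3, RFC5, RRM1, MAD2L1, TOP2A and SMC4 were higher on b in all 3 MSP groups. The labels do not say what the letters stand for.

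**Figure D2:**
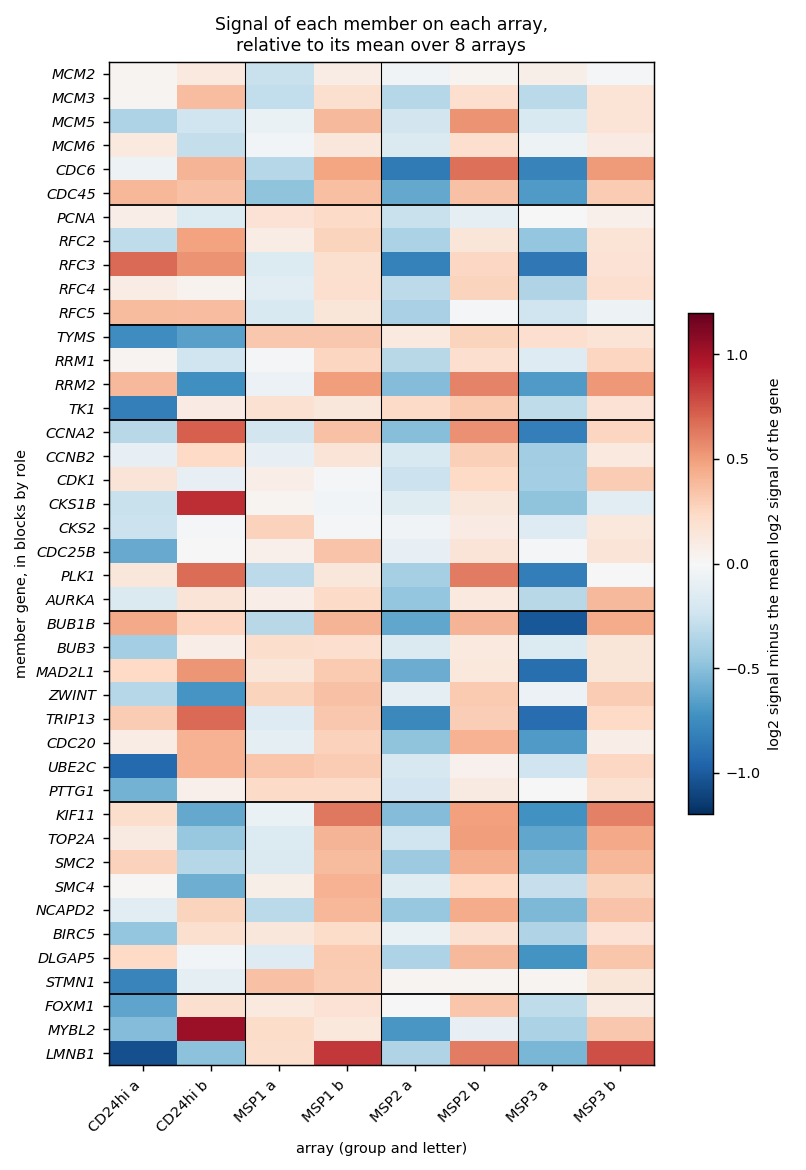
Log2 signal of each member on each of the 8 arrays minus its mean over the arrays (colour), with genes in blocks by role (vertical axis) and arrays by group and letter (horizontal axis). The MSP2 a and MSP3 a columns are mostly blue, with member medians of -0.32 and -0.37, and the 3 MSP b columns mostly red, with medians of 0.18 to 0.27.

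A fit of b against a over the 6 MSP arrays, with a mean per group, was added after these values had been seen. With limma 0 members and 0% of all probe sets passed, the lowest adjusted p of a member being 0.319 on 2 residual degrees of freedom. At an unadjusted p under 0.05 there were 17 members, all higher on b, against 18.5% of bright probe sets in either direction and 8.59% higher on b. With limma-trend, 24 members passed, all higher on b, against 11.7% of bright probe sets higher on b, 12.8% lower on b and 10.9% of all probe sets in either direction. With limma fitted on and adjusted over bright probe sets alone, 19 members passed, all higher on b, against 21.5% of bright probe sets in either direction and 10.1% higher on b. The Bacillus controls were lower on b than on a in every MSP group, and the epithelial and mesenchymal marker lists had median b minus a differences of -0.24 and -0.27. The part of the controls in the difference between letters was not tested.

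**Figure D3:**
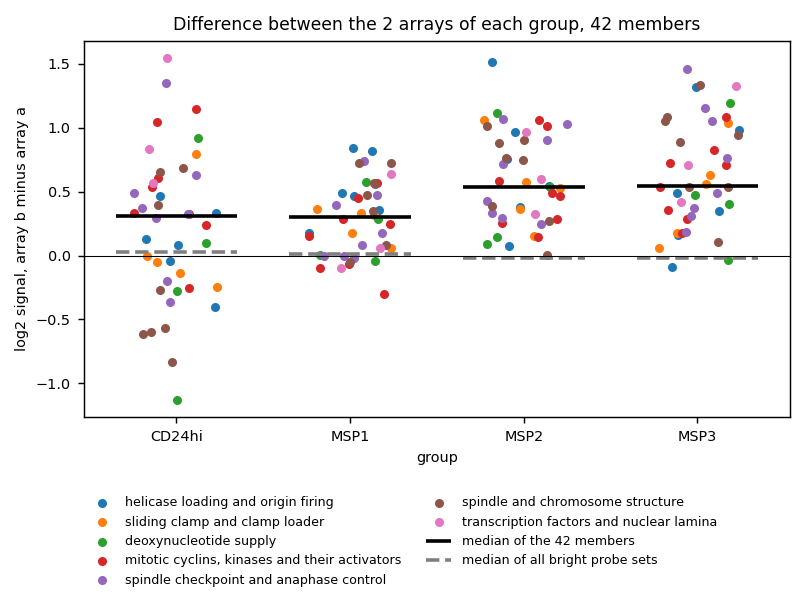
Log2 signal of array b minus array a in each group for the 42 members (points, coloured by role), with the median of the members (solid line) and of 23120 bright probe sets (dashed line). The members' medians are 0.30 to 0.55 and those of the bright probe sets -0.02 to 0.03, and in MSP2 every point lies above 0.

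For each role the member with the widest mean difference between the MSP b and a arrays is given next, chosen after the values were seen. CDC6, the loader of the MCM helicase, had the widest of all. Its signals were 524 and 725 in CD24hi, 433 and 762 in MSP1, 304 and 866 in MSP2, and 313 and 781 in MSP3. Every MSP b array lay above every other array, and the mean log2 difference was 1.22 ± 0.22 SE (limma, adjusted p = 0.319). With limma-trend its adjusted p was 0.00109. A further CDC6 probe set gave 1.16. For RFC3, RRM2, CCNA2 and LMNB1, whose signals are given above, the mean difference was 0.82, 0.96, 0.90 and 0.98. BUB1B, the BubR1 kinase of the spindle checkpoint, read 1934 and 1685 in CD24hi, 1122 and 1874 in MSP1, 915 and 1871 in MSP2, and 696 and 1914 in MSP3. The MSP b arrays lay between 1871 and 1914, near the CD24hi arrays, while the MSP a arrays were lower, with a mean difference of 1.08 ± 0.22 SE. KIF11, the kinesin that pushes spindle poles apart, read 1154 and 649 in CD24hi, 939 and 1548 in MSP1, 693 and 1399 in MSP2, and 601 and 1516 in MSP3. The MSP b arrays were the highest of all and CD24hi b among the lowest, with a mean difference of 1.02 ± 0.20 SE. At the other end, STMN1, TYMS, CKS2 and PCNA had mean differences of 0.02, 0.04, 0.04 and 0.09. By role, the median of this mean difference was 0.78 for spindle and chromosome structure, 0.52 for helicase loading, 0.47 for checkpoint and anaphase control, 0.44 for the clamp and its loader, 0.40 for transcription factors and lamina, 0.39 for mitotic cyclins and kinases, and 0.29 for deoxynucleotide supply.

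In CD24hi the letters ordered some members as in the MSP groups and others the opposite way. Array b was lower than a in CD24hi but higher in all 3 MSP groups for 15 members, against 20.4% of bright probe sets, and higher in all 4 groups for 16, against 9.97%. Of the 31 members higher on b in all 3 MSP groups, these 15 are a smaller share than the 4721 of 7027 such bright probe sets. The opposite order in CD24hi was thus not more frequent among the members. Among the 15, a further bright probe set was higher on b in CD24hi for RFC3, RFC5 and RRM1 and lower for TOP2A and SMC4. Among the 16, it was higher for RFC2 and MAD2L1 and lower for CDC6, and BIRC5 had 1 of each. Over 2-fold differences between the CD24hi arrays were found for MYBL2, UBE2C, CKS1B and CCNA2, higher on b, against 12.5% of bright probe sets, and for RRM2, higher on a, against 14.6%. In MSP2 8 members and in MSP3 11 were over 2-fold higher on b, against 3.14% and 3.57%, and in MSP1 0, against 2.19%. None was over 2-fold lower on b in these groups, where 1.79% of bright probe sets were in MSP1, 4.58% in MSP2 and 4.78% in MSP3. Across the 42 members, the b minus a differences had a Pearson r of 0.69 to 0.89 between pairs of MSP groups and of -0.40 to -0.20 between CD24hi and an MSP group. Over bright probe sets r was 0.55 to 0.70 and -0.36 to -0.27. These are correlations across genes, which share their arrays and are not independent replicates.

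The estimated change from CD24hi to the mesenchymal cells depended on which letter was used. From arrays a alone its median over the members was -0.16 and from arrays b alone 0.11, against 0.11 and 0.06 over bright probe sets. The sign differed between letters for 19 of 42 members and for 10731 of 23120 bright probe sets. These shares are alike, so a change of sign between letters was not particular to the members. RRM2 gave -0.82 from arrays a and 1.28 from arrays b, and KIF11 gave -0.66 and 1.19. TOP2A gave -0.45 and 0.91. UBE2C gave 0.90 and -0.22, MYBL2 0.23 and -0.91, and CKS1B 0.07 and -0.89. TYMS, by contrast, gave 0.96 and 0.90 on its brightest probe set, and LMNB1 0.83 and 1.24. On the further TYMS probe set the CD24hi arrays differed by 1.06, b minus a. Each of these values rests on 1 CD24hi array and 3 MSP arrays and has no test.

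**Figure D4:**
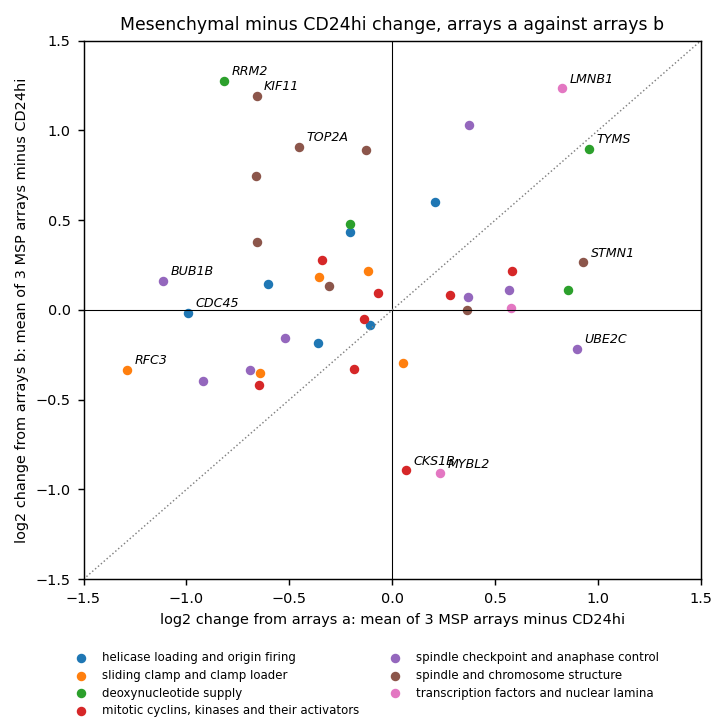
Log2 change from CD24hi to the mean of the MSP groups for each of the 42 members, from arrays a (horizontal axis) and from arrays b (vertical axis), coloured by role, with a dotted line of equal change. TYMS lies near the line at 0.96 and 0.90, whereas RRM2 and KIF11 lie far above it and UBE2C, CKS1B and MYBL2 below it.

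Further genes of the same processes gave like counts. The authors' table names only part of the array, so a gene unnamed or dim here may have a brighter probe set without a name. Of a list of 46 further replication genes 29 were named here and 26 were bright, and 0 passed the test between the MSP mean and CD24hi with limma or limma-trend, with 0 at an unadjusted p under 0.05, beside 3.17% and 6.03% of all probe sets and 20.4% of bright ones. MSH6, a mismatch repair protein and the brightest of them, had a log2 change of 0.15. On the letters, 20 of these 26 were higher on b in all 3 MSP groups, against 30.4% of bright probe sets, with a median difference of 0.40. Of 65 further mitosis genes 29 were named and 24 were bright, and 0 passed with either tool, with 1 at an unadjusted p under 0.05, CDC25A, a phosphatase that activates CDKs (-1.46, adjusted p = 0.217). RAD21, a cohesin subunit and the brightest of them, had -0.41. Of these, 20 of 24 were higher on b in all 3 MSP groups, beside the same 30.4%, with a median difference of 0.61, and ANLN, which encodes the cytokinesis protein anillin, had 1.24.

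The promoters of the members with the widest difference between letters are printed where RefSeq's table of assembly GRCh38.p14 holds them, each from 250 bases before to 50 bases after the first listed start. LMNB1, whose first listed window held none of the motifs, is left out. Capitals mark matches on either strand to TTTNNCGC, a core of E2F sites, to TTTGAA, the core of the CHR element bound by MuvB complexes, and to CCAAT, the box bound by NF-Y; no match printed overlaps another.
CDC6 promoter, chr17:40287629-40287928, plus strand: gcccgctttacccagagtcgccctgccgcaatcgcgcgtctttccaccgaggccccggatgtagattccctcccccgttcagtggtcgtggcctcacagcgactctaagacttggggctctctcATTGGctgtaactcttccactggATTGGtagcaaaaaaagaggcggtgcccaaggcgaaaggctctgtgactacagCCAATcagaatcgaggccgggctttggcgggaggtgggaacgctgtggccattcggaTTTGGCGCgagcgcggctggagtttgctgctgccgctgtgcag
RFC3 promoter, chr13:33817899-33818198, plus strand: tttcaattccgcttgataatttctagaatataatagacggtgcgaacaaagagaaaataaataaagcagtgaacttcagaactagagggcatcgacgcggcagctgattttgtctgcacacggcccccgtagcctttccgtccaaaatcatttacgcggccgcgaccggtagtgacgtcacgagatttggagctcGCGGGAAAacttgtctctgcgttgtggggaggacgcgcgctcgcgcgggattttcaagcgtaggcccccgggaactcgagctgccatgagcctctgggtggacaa
RRM2 promoter, chr2:10122489-10122788, plus strand: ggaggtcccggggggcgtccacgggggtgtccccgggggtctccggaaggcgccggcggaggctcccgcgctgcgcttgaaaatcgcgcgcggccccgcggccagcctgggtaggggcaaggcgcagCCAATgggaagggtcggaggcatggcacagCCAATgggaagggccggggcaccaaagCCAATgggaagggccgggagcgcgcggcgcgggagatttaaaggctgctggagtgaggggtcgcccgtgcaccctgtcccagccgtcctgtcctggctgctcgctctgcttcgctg
CCNA2 promoter, chr4:121823834-121824133, minus strand: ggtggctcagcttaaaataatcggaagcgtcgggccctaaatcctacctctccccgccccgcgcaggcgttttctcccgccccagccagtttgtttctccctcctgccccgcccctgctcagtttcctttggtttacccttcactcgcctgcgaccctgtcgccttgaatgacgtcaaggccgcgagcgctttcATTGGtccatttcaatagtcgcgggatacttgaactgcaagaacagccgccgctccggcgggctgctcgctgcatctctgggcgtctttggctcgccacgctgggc
BUB1B promoter, chr15:40160819-40161118, plus strand: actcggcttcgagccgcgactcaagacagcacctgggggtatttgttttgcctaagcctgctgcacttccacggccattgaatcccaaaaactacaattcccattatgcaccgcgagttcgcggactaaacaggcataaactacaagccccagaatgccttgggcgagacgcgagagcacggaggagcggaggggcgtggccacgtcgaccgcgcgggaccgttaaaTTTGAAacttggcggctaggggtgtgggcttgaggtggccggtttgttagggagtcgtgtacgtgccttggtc
KIF11 promoter, chr10:92592880-92593179, plus strand: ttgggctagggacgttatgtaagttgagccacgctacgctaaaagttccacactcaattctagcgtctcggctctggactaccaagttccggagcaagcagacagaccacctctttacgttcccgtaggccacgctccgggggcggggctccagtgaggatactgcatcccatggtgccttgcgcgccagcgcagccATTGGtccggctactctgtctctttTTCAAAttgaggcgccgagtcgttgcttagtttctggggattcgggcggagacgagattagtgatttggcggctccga

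CDC6 and RFC3 held a TTTNNCGC match, BUB1B and KIF11 a TTTGAA match, and CDC6, RRM2, CCNA2 and KIF11 at least 1 CCAAT match. Of the 42 members 36 had a promoter in the table, and AURKA, BIRC5, BUB3, FOXM1, MCM5 and UBE2C did not. TTTNNCGC was found in 10 of 36, 27.8%, against 8.86% of 15842 protein-coding genes with a promoter of the same length. TTTGAA was found in 16, 44.4%, against 12.1%, and CCAAT in 23, 63.9%, against 36.4%. By role, TTTNNCGC was held by 4 of 5 genes of helicase loading, 3 of 5 of the clamp and its loader, 1 of 4 of deoxynucleotide supply, 1 of 7 mitotic cyclins and kinases, 0 of 6 checkpoint and anaphase genes, 1 of 7 of spindle and chromosome structure and 0 of 2 in the last role. TTTGAA was held by 0 of 5 genes of helicase loading, 0 of 5 of the clamp and its loader, 1 of 4 of deoxynucleotide supply, 5 of 7 mitotic cyclins and kinases, 4 of 6 checkpoint and anaphase genes, 6 of 7 of spindle and chromosome structure and 0 of 2 in the last role. The difference between roles was not tested. A match is a description of letters in the window and not a shown binding site.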

How the data were processed

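Biotin-labelled total RNA of HMLE cells was measured on single-colour arrays, per the labels. The deposited probe set values are a linear intensity; the submitters' processing notes name Affymetrix Expression Console and limma, and the algorithm is not given in the sources used here. Every array had a 2% trimmed mean of 150. The authors' deposited table holds log2 fold changes and p-values; whether these p-values are adjusted is not stated. Its symbols were the only gene names, and 1 member (TYMS) was among 2256 probe sets it lists first. It lists 16382 probe sets and ends at position 14644 in array order, so many genes lack a name or their brightest probe set.

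The log2 of each intensity, without an offset, went into limma 3.58.1 (R 4.3.3) as group means over all 8 arrays, two-sided, with Benjamini-Hochberg adjustment over 54613 probe sets after 62 controls were left out. A member was called at an adjusted p under 0.05. Levels over several arrays are geometric mean signals, and mean signals behind limits are arithmetic. The b against a fit used 6 MSP arrays with a term for the letter. The fits were tested on simulated data. Alternatives were another normalization, a floor or offset, fewer probe sets, limma-trend, a replicate block and each array left out.

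Members and lists were chosen with earlier results of these data known. Signals on every array were given for the members with the widest and narrowest change of each role and the 5 with the widest CD24hi difference between letters, and for the widest difference between MSP letters of each role. Of the further lists the brightest gene was named where none was called; CDC25A and ANLN were chosen after their values were seen.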

Additional observations from a re-analysis of the deposited data

Results flagged for a closer look

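In 9 members whose signal on every array is given above, array b was lower than array a in CD24hi and higher in all 3 MSP groups. The b minus a difference in CD24hi minus its mean in the MSP groups was -2.09 on the log2 scale for RRM2, -1.85 for KIF11, -1.41 for SMC2, -1.28 for BUB1B, -0.98 for CDC45, -0.96 for RFC3, -0.69 for RRM1, -0.66 for ZWINT and -0.33 for PCNA. In CD24hi alone the b minus a difference of these members ran from -1.13 for RRM2 to -0.05 for CDC45, and it was -0.14 for RFC3. For CDC45 and RFC3 most of the value given thus comes from the MSP groups. CD24hi gives 1 such difference and each MSP group 1, so this was not tested. Further bright probe sets of RFC3 and RRM1 were higher on b in CD24hi, by 0.23 and 0.10. For these 2 members the order in CD24hi depends on the probe set. Of all 42 members 15 had this order of letters on the probe set used, against 20.4% of bright probe sets. Another 16 were higher on b in all 4 groups, against 9.97%. Among those higher on b in all 3 MSP groups, 15 of 31 members and 4721 of 7027 bright probe sets had the opposite order in CD24hi. That order was thus not more frequent among the members.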

How the results depend on the processing

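No member was called in MSP1, MSP2, MSP3 or their mean against CD24hi under quantile normalization, median centring, the part named in array order, the mean of all probe sets or any array left out. With signals floored at 32 or an offset of 16, 1 member (TYMS) was called in each of these comparisons; over bright probe sets alone 1 was called for the mean and for MSP1, and over named genes alone or with limma-trend 1 for the mean. Median centring gave -0.0060 for PCNA, -0.046 for AURKA and -0.015 for SMC2. Without 1 array, log2 changes ran from -0.071 to 0.17 for PCNA, -0.0026 to 0.28 for RRM1, -0.15 to 0.17 for AURKA, -0.026 to 0.47 for BUB3, -0.26 to 0.35 for SMC2, -0.12 to 0.71 for FOXM1, -1.11 to 0.44 for MYBL2, -0.33 to 1.02 for UBE2C, -0.99 to 0.16 for CKS1B, -0.33 to 0.80 for RRM2 and -0.78 to 0.27 for CCNA2, all turning sign. Of 342 fits of 19 members, 317 kept direction and side of the threshold, 20 turned and 5 passed it. Between MSP b and a arrays, 19 members passed over bright probe sets alone, where 21.5% of probe sets did, and 24 with limma-trend, where 10.9% did, and 0 under the other alternatives run. The cause of these moves was not tested. With the letter as a replicate block, 0 members were called against CD24hi and between MSP groups. Over bright probe sets b minus a correlated at 0.55 to 0.70 between MSP groups but at -0.36 to -0.27 between these and CD24hi. The Bacillus controls were lower on b than on a in every group, CD24hi included. Whether the letters pair CD24hi with the MSP arrays was not tested, and the labels do not say.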
